A study of Rattus norvegicus with 32 samples.

Results

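The genes described here are 65 identifiers of the rat hippocampus transcriptome that carry the names of the interferon response and of antigen presentation. They were found among the 23822 identifiers of the gene table by their symbols, which cover sensors of viral nucleic acid, signal transducers, antiviral effectors, inducible GTPases, TRIM and PARP genes, and the class I and class II antigen presentation genes. The symbols came from the name column of the tables that list genes differing between R237H and WT rats, so the genotype difference itself chose the members. All R237H against WT values below are therefore a description and carry no test. The same holds where those differences are set against each other between the sexes or the ages, since they are the contrasts that chose the members. The contrasts of the ages within 1 genotype were not themselves used in the choice, but they reuse its rats. A gene listed as higher in R237H rats at P56 is favoured toward a rise with age in R237H rats. Their counts and FDRs are therefore a description too. Of the 65 identifiers, 33 were listed in all 4 tables (males and females at P21 and P56), 13 in 3, 10 in 2 and 9 in 1. Only 3289 identifiers had a symbol in the tables as given here, so genes of the family without one could not be found, and both identifiers named Gbp6 were kept.

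The R237H rat is heterozygous for an arginine to histidine change in Gfap (Gfap+/R237H) and is a model of Alexander disease, a disorder of astrocytes caused by mutation of this gene. It was compared with Gfap+/+ littermates (WT) on the outbred Crl:CD(SD) stock. The allele is present in every cell and throughout life, but Gfap is active mainly in astrocytes, and a bulk tissue measurement does not say which cell made a transcript. Hippocampus from 32 rats was sequenced as polyadenylated RNA at postnatal day 21 (P21) and at day 56 (P56), with 4 rats in each group of 1 genotype, sex and age, except that the labels place 5 R237H and 3 WT females at P21. The 2 ages are separate animals, and age cannot be told apart from the collection in which the animals were taken.

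Interferons are secreted signals of infection and tissue damage. Type I interferons act through Ifnar receptors and factors that bind the interferon-stimulated response element (ISRE), Stat2 and Irf9 among them, and interferon gamma acts through its own receptor and induces Irf1. The genes switched on restrict viruses, sense foreign nucleic acid and raise the presentation of peptides, by class I molecules on nearly all cells and by class II molecules on professional presenting cells. In the brain these genes are low at rest, and microglia, astrocytes and border macrophages are known to raise them.

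Library depth ran from 21580397 to 55544871 expected counts with a median of 46157271, and 2 libraries, a R237H male at each age, lay under 30000000. The summed level of 4 hippocampal neuron markers with a symbol (of 8 listed) was 321 to 506 CPM (counts scaled to the library size) in R237H P56 males and 693 to 1191 CPM in WT, without overlap, whereas the genotypes overlapped in the other sexes and ages. The choroid plexus gene Ttr was above 100 CPM in 5 rats and highest, at 1671 CPM, in the WT P56 male s66-B, which was also the highest of its group for 41 of the 65 members. Its values are given beside the results they touch. Levels in each rat are given in CPM after scaling by the trimmed mean of M-values (TMM) over all 32 rats, and only values in TPM (transcripts scaled to the same total), which divide by length, are compared between genes.

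Summed over the 65 members, the TPM level in P56 males was 2477 ± 167 in R237H rats and 713 ± 170 in WT rats (mean ± SD, n = 4 each), and in P56 females it was 2341 ± 331 and 722 ± 95.3. At P21 the sums were closer, at 1110.0 ± 70.1 against 629 ± 15.4 in males and 1094 ± 146 (n = 5) against 605 ± 46.7 (n = 3) in females. The light chain of class I, B2m, was the most abundant member by TPM in all 8 groups. It made up 31.2% of the summed TPM in R237H P56 males and 39.5% in WT P56 males. In bulk samples fewer cells of a type and less RNA per cell cannot be told apart, so these sums do not separate more presenting cells from more transcript in each.

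In edgeR's quasi-likelihood test at an FDR under 0.01, 57 of the 65 members were higher and 1 lower in R237H than in WT males at P56, where 16.8% of all genes tested were higher and 11.1% lower. In P56 females 60 were higher and 1 lower, beside 17.0% and 11.1% of all genes. At P21 fewer members passed the filter on low counts. Of 60 tested in males 51 were higher and 1 lower (12.4% and 4.82% of all genes), and of 62 tested in females 31 were higher and 0 lower (7.06% and 0.753%). The female P21 count rested on few WT rats, since it was 19 without R1790A, 19 without R1796A and 20 without R1797C. The median log2 fold change over members was 1.91 in P56 males, 2.04 in P56 females, 1.21 in P21 males and 1.12 in P21 females, beside medians over all genes between -0.03 and -0.01. Since the choice of members used this contrast, the counts describe the list and are not evidence about it.

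Every R237H rat lay above every WT rat for 61 members in P56 males and for 61 in P56 females, where 23.0% and 22.6% of all genes were separated in this way. At P21 it was 53 in males (16.9% of all genes) and 47 in females (14.1%). Calls over the 4 comparisons were counted for members only, so no share over all genes is given and the counts describe the list. A higher call in all 4 comparisons was made for 28 members, in 3 for 20, in 2 for 11, in 1 for 5 and in none for 1. The member with none was Parp6, a member of the ADP-ribosyltransferase family whose name matched the rule. Its level was lower in R237H rats, at 81.5, 84.8, 85.8 and 89.04 CPM against 127, 143, 145 and 158 CPM in P56 males.

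**Figure D1:**
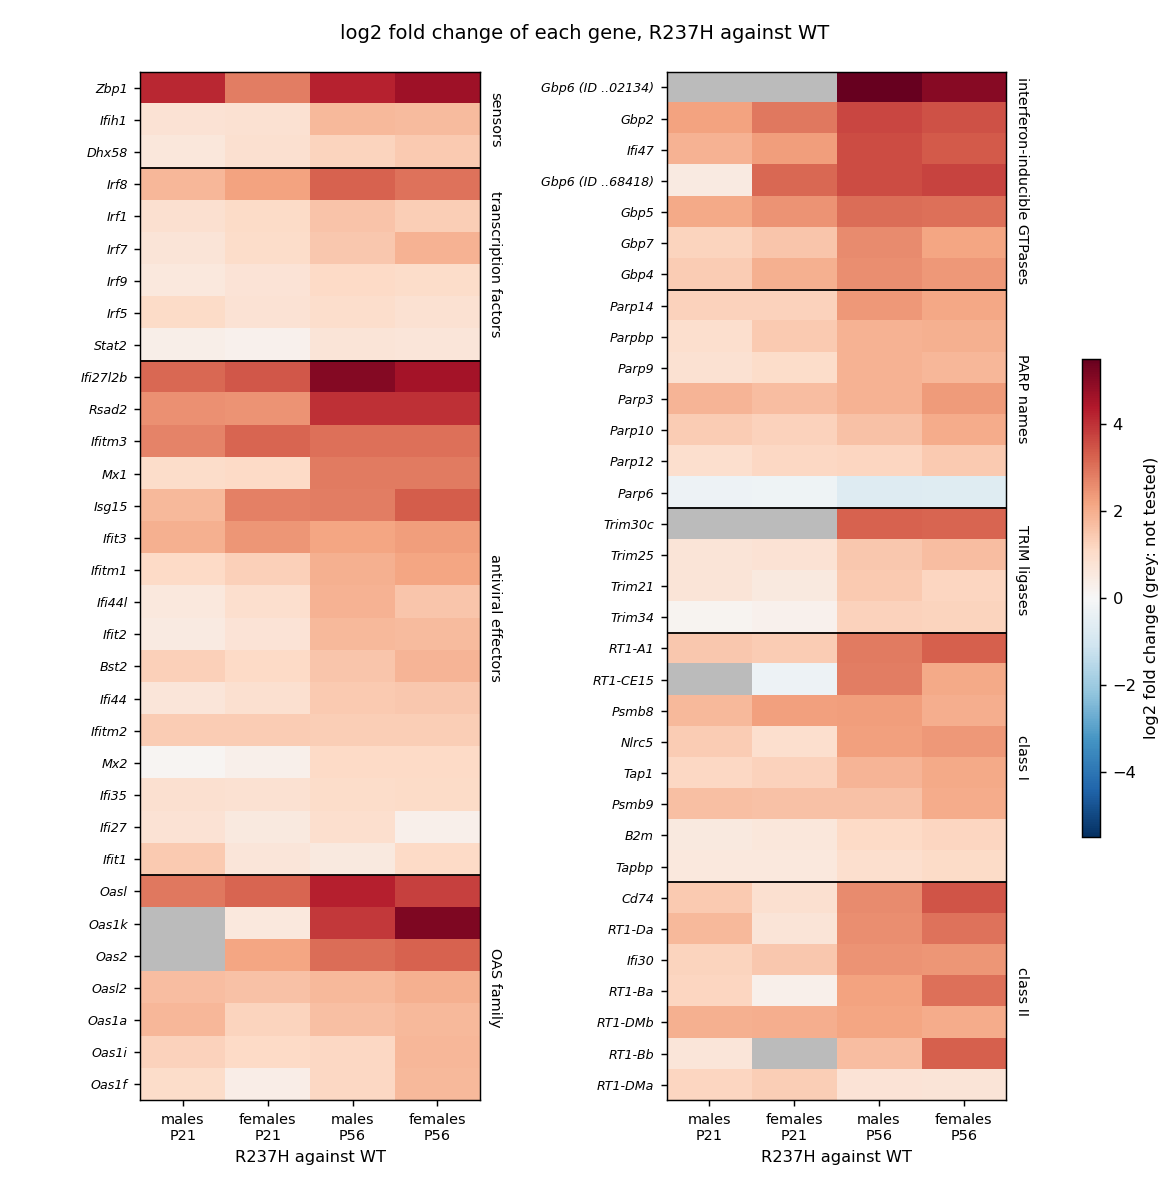
Log2 fold change of each of the 65 identifiers, R237H against WT, in P21 and P56 males and females, grouped by role and ordered by the value in P56 males (red higher in R237H rats, blue lower, grey not tested). The P56 columns are darker than the P21 columns for most genes, Parp6 is the blue row, and the top Gbp6 row rests on at most 2 counts in any WT rat.

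Sequences upstream of these genes were read to show where they carry interferon motifs. RefSeq promoters of the GRCr8 assembly, 250 bases before to 50 after each start, were available for 51 of the 64 symbols. The ISRE core was searched as GAAANNGAAA, which reads TTTCNNTTTC on the other strand, and the gamma-activated site (GAS), an element of the interferon gamma response, as TTCNNNGAA, which is its own reverse complement. An ISRE core was present in 25 of 51 member promoters (49.0%) and in 3.92% of the 33469 promoters of the table, whereas a GAS was present in 11 (21.6%) and in 8.87%. Both were present in 7, and matches of the 2 motifs can share bases. A match is a description of the letters and not of binding, and the windows were not chosen for use in hippocampus.

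The matches differed by role. Antiviral effectors held an ISRE core in 8 of 10 promoters, inducible GTPases in 4 of 6, class I genes in 4 of 7 (B2m, Psmb8, Tap1 and Tapbp) and OAS genes in 3 of 5. TRIM genes held one in 2 of 4 and PARP names in 2 of 6. Among 6 transcription factors only Irf7 held an ISRE core, while Irf1, Irf8 and Irf9 held a GAS. None of the 6 class II promoters held either string of letters. The following 9 windows show the match in capitals with 25 bases on either side where the window reaches, 5′ to 3′ on the strand of the gene, for genes whose levels are given below.
Ifih1 (chr3:67683993-67684052, - strand): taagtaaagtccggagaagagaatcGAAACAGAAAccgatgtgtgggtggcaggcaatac
Irf7 (chr1:205800058-205800117, - strand): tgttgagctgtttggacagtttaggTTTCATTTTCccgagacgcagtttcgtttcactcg
Ifit3 (chr1:241527257-241527316, + strand): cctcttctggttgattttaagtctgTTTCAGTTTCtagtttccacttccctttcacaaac
Oasl2 (chr12:47383302-47383361, - strand): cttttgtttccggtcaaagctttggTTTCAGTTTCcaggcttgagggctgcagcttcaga
Gbp2 (chr2:234005671-234005726, + strand): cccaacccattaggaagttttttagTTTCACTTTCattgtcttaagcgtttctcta
Bst2 (chr16:18255058-18255123, - strand): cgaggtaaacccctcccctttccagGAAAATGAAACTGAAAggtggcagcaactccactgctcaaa
Ifitm3 (chr1:205541768-205541827, - strand): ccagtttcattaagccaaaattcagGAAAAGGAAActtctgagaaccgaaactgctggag
B2m (chr3:129549155-129549214, + strand): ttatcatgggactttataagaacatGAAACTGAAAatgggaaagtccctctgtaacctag
Tap1 (chr20:4668630-4668689, - strand): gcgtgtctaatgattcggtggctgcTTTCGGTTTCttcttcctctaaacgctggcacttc

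In Gbp2 the match began 31 bases before the start, in Ifit3 and Ifitm3 44 bases, in Ifih1 59 and in Irf7 69, whereas in Tap1, B2m and Oasl2 it began 121, 150 and 151 bases upstream. Bst2 held 2 overlapping matches in 1 run, at 131 and 125 bases. The median log2 fold change in P56 males was 1.77 over the 25 identifiers with an ISRE core and 1.93 over the 27 without, and in P21 males it was 1.25 and 1.03 (25 and 24 identifiers).

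**Figure D2:**
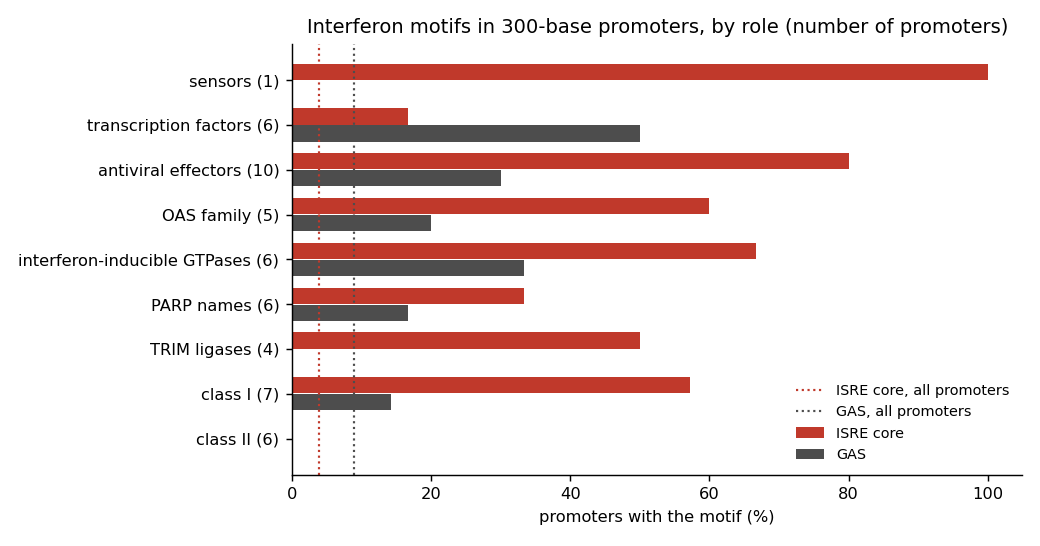
Share of promoters (x axis, %) that hold an ISRE core (red) or a GAS (grey) in each role, with the number of promoters in brackets and dotted lines at the share over all promoters of the table (3.92% and 8.87%). Antiviral effectors hold the ISRE core in 8 of 10, transcription factors the GAS in 3 of 6, and class II has neither.

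Among the 3 sensors, Ifih1 encodes MDA5, which detects long double-stranded RNA. At P56 it was at 16.5, 18.6, 19.6 and 19.8 CPM in R237H males and 5.06, 5.16, 5.29 and 6.403 CPM in WT males, the log2 fold change being 1.79 ± 0.13 (SE). In P56 females it was at 14.1, 19.2, 19.6 and 22.5 CPM against 4.39, 5.302, 6.06 and 6.72 CPM. The groups did not overlap in either sex, and the highest WT male was s66-B. At P21 the gap was smaller, with 8.15, 8.97, 9.05 and 9.66 CPM in R237H males against 4.76, 4.85, 5.38 and 5.84 CPM in WT males. P21 females were at 6.65, 6.81, 8.43, 9.03 and 9.14 CPM and 4.18, 4.62 and 4.85 CPM, again without overlap. WT means were 4.55 to 5.62 CPM over the 4 groups, whereas R237H means were 8.01 and 8.96 CPM at P21 and 18.6 and 18.9 CPM at P56.

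Zbp1, a sensor of Z-form nucleic acid that can start necroptosis, was close to absent in WT rats. Its P56 values were 2.12, 3.03, 3.57 and 3.605 CPM in R237H males and 0.0629, 0.0752, 0.0961 and 0.392 CPM in WT males, where the highest WT value was that of s66-B. P56 females had 2.37, 2.98, 4.54 and 5.09 CPM against 0.0673, 0.139, 0.147 and 0.231 CPM. At P21 the males were at 0.325, 0.389, 0.783 and 0.856 CPM against 0, 0.0193, 0.0212 and 0.0924 CPM and the females at 0.282, 0.482, 0.496, 0.554 and 0.903 CPM against 0.0526, 0.06497 and 0.111 CPM. No R237H rat overlapped a WT rat of its own sex and age, but the WT values rest on few reads. The fitted log2 fold change in P56 males was 4.25 ± 0.52 and rose to 5.30 without s66-B, and in P21 males it was 4.15 ± 0.60 and 5.21 without R1781D.

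Dhx58 encodes LGP2, a regulator of MDA5, and moved less. Its P56 levels were 6.83, 7.15, 7.603 and 7.66 CPM in R237H males against 2.77, 2.88, 3.45 and 3.46 CPM in WT males, and 6.63, 6.91, 8.47 and 9.99 CPM against 1.78, 2.63, 2.96 and 4.26 CPM in females. In P21 males it was at 2.98, 3.15, 3.31 and 3.39 CPM against 1.82, 2.07, 2.15 and 2.22 CPM, and in P21 females at 2.49, 3.08, 3.24, 3.43 and 3.802 CPM against 1.39, 1.52 and 2.28 CPM. The groups were apart in all 4 comparisons, by a log2 fold change of 1.24 ± 0.15 in P56 males and 0.64 ± 0.12 in P21 males.

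All 6 transcription factors were called higher in P56 males, P56 females and P21 males, and 2 (Irf1 and Irf8) in P21 females. Irf8, which governs the development of myeloid cells and microglia, differed most. P56 males were at 30.3, 41.03, 47.5 and 53.7 CPM against 3.31, 4.72, 4.95 and 5.31 CPM in WT, and P56 females at 29.4, 37.1, 39.9 and 52.4 CPM against 3.76, 5.002, 5.39 and 5.45 CPM. Levels in P21 males were 15.1, 15.9, 18.3 and 19.6 CPM against 4.34, 4.73, 4.97 and 5.17 CPM, and those of P21 females were 16.7, 18.4, 23.8, 24.7 and 25.7 CPM against 4.62, 4.78 and 5.03 CPM. No groups overlapped, and the 15 WT rats of both ages ranged from 3.31 to 5.45 CPM. The log2 fold changes were 3.26 ± 0.21 and 3.00 ± 0.20 at P56, and 1.85 ± 0.10 and 2.20 ± 0.18 at P21, in males and females.

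Stat2 and Irf9 act together at the ISRE, and Stat2 had the lowest fold change of the transcription factors. Stat2 was at 54.1, 57.8, 58.5 and 63.9 CPM in R237H P56 males and 32.2, 35.3, 36.5 and 42.7 CPM in WT, and at 51.9, 52.9, 61.9 and 62.6 CPM against 33.4, 35.01, 36.1 and 38.1 CPM in P56 females. At P21 Stat2 was at 36.8, 38.1, 38.7 and 40.3 CPM against 29.4, 30.6, 30.96 and 33.9 CPM in males and overlapped in females, at 33.01, 38.6, 39.4, 42.7 and 43.5 CPM against 31.9, 33.4 and 35.4 CPM. The P21 females were the only comparison in which Stat2 overlapped. Irf9 was at 25.2, 26.1, 27.5 and 28.1 CPM against 10.3, 12.1, 13.5 and 15.2 CPM in P56 males and 23.5, 24.1, 27.7 and 28.4 CPM against 11.8, 12.1, 12.9 and 14.3 CPM in P56 females, with no overlap. The P21 values of Irf9 were 14.8, 15.1, 15.8 and 16.4 CPM against 9.87, 10.3, 10.5 and 11.2 CPM in males and 12.2, 13.6, 15.2, 16.4 and 19.3 CPM against 7.2, 9.03 and 11.5 CPM in females. In log2 units the P56 male differences were 0.70 ± 0.10 for Stat2 and 1.09 ± 0.13 for Irf9.

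Irf1, the factor best known from the interferon gamma response, was at 23.2, 23.9, 24.3 and 25.02 CPM in R237H P56 males and 6.49, 7.82, 9.09 and 9.83 CPM in WT, and at 19.2, 23.1, 23.8 and 24.3 CPM against 6.33, 9.57, 9.69 and 9.73 CPM in females. P21 males were at 9.65, 9.91, 11.2 and 15.6 CPM against 6.01, 6.103, 6.73 and 6.76 CPM, and P21 females at 11.5, 11.7, 11.8, 13.1 and 13.5 CPM against 5.55, 6.04 and 6.11 CPM. None of these groups overlapped. Irf7, which amplifies the type I response, was at 13.7, 13.9, 15.5 and 16.9 CPM against 3.66, 4.28, 4.53 and 8.95 CPM in P56 males and 11.7, 14.9, 18.7 and 27.5 CPM against 3.398, 3.79, 5.19 and 6.73 CPM in P56 females. At P21 Irf7 was at 2.83, 3.24, 3.66 and 3.69 CPM against 1.55, 2.22, 2.22 and 2.24 CPM in males and 3.31, 3.36, 3.61, 4.64 and 4.88 CPM against 1.498, 2.04 and 2.48 CPM in females. Every P56 value of Irf7 lay above every P21 value of the same sex and genotype, and the WT male s66-B, at 8.95 CPM, stood between the P56 groups. The log2 fold changes of Irf5 lay between 0.79 and 1.04.

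Of 16 antiviral effectors, 13 were called higher in each of P56 males, P56 females and P21 males, and 9 in P21 females. Isg15 encodes a ubiquitin-like protein that is conjugated to other proteins. It was at 2.73, 3.32, 4.03 and 7.598 CPM in R237H P56 males and 0.264, 0.315, 0.376 and 1.51 CPM in WT, the highest WT value being that of s66-B. P56 females were at 2.56, 4.74, 5.72 and 5.8 CPM against 0.196, 0.347, 0.622 and 0.6502 CPM, with no overlap. The P21 values were lower, at 0.892, 0.928, 1.27 and 1.34 CPM against 0.0424, 0.231, 0.324 and 0.677 CPM in males and 0.564, 0.676, 0.925, 1.01 and 1.297 CPM against 0.0263, 0.0866 and 0.265 CPM in females. Its fitted difference in P56 males, 2.82 ± 0.58, was 3.80 without s66-B. In P21 males it was 1.78 ± 0.46, and 2.49 without R1781G. In P21 females it was 2.78 ± 0.55, and 3.89 without R1790A.

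Ifit3, which with other IFIT proteins binds viral RNA, was at 4.94, 5.43, 6.14 and 6.14 CPM in R237H P56 males and 0.627, 0.745, 1.41 and 2.33 CPM in WT. In P56 females it was at 3.55, 6.24, 8.76 and 11.4 CPM against 1.099, 1.23, 1.68 and 1.93 CPM. The P21 males had levels of 1.396, 1.81, 2.08 and 2.81 CPM against 0.185, 0.572, 0.626 and 0.677 CPM, and those of P21 females were 1.59, 1.62, 1.78, 2.28 and 2.44 CPM against 0.217, 0.342 and 0.508 CPM. Ifit3 was separated between genotypes in all 4 comparisons, and its log2 fold changes of 1.97 to 2.45 were alike at both ages. Ifit1 and Ifit2 differed from it. The log2 fold change of Ifit2 was 0.51 ± 0.10 at P21 and 1.80 ± 0.21 at P56 in males. That of Ifit1 in males was 1.44 ± 0.18 at P21 and 0.54 ± 0.49 at P56, the latter not called. Ifit1 in females had the larger value at P56 and was called at neither age. In log2 TPM, with other scaling factors and without each rat, it was 0.47 to 0.78 at P21 and 0.88 to 1.29 at P56.

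Mx1, a dynamin-like GTPase that traps viral capsids, was at 31.7, 37.2, 38.2 and 47.4 CPM in R237H P56 males and 3.29, 4.36, 6.49 and 7.402 CPM in WT. P56 females were at 29.5, 38.5, 59.9 and 70.7 CPM against 5.52, 5.897, 7.19 and 8.48 CPM. P21 males were at 15.3, 17.1, 17.1 and 25.8 CPM against 7.62, 8.76, 10.4 and 10.8 CPM and P21 females at 15.2, 18.4, 18.7, 22.1 and 25.6 CPM against 7.91, 9.75 and 10.2 CPM. Mx1 did not overlap between genotypes in any comparison, and its WT levels were lower at P56 than at P21 in both sexes by mean. Its relative Mx2, looked at after its values were seen, varied within groups. P21 R237H females ranged from 14.2 to 29.6 CPM and WT females from 10.8 to 24.6 CPM, and among WT P56 rats s65-B at 29.6 CPM and s69-D at 37.8 CPM stood above the other 6, which lay between 15.9 and 18.1 CPM.

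Bst2, or tetherin, holds budding virions at the cell surface. It was at 6.68, 8.99, 10.1 and 10.2 CPM in R237H P56 males and 1.404, 2.37, 3.41 and 5.56 CPM in WT, where s66-B was again the highest, and at 6.38, 8.72, 9.83 and 10.9 CPM against 2.29, 2.397, 2.49 and 2.67 CPM in females. The P21 levels were 3.89, 4.26, 4.92 and 5.74 CPM against 1.801, 1.802, 1.99 and 2.03 CPM in males and 2.77, 3.97, 4.66, 4.91 and 5.37 CPM against 1.76, 1.88 and 2.43 CPM in females. The P21 gap of Bst2 was seen in both sexes without overlap. Ifitm3, which blocks entry of viruses at the endosome, had the larger fold change. It was at 28.9, 35.3, 39 and 44.2 CPM against 3.58, 3.796, 4.06 and 6.74 CPM in P56 males and at 27.6, 36.8, 39.9 and 47.04 CPM against 2.66, 3.97, 5.69 and 6.02 CPM in P56 females. At P21 Ifitm3 was at 14.1, 14.5, 17.3 and 21.99 CPM against 2.08, 2.34, 2.84 and 3.04 CPM in males and 14.7, 16.04, 21.3, 21.4 and 27.9 CPM against 1.62, 2.102 and 2.96 CPM in females. Its log2 fold change was 3.04 ± 0.23 in P56 males and 2.73 ± 0.17 in P21 males. Ifitm1, Ifitm2 and Ifitm3 are close paralogs whose reads the counting could have split.

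The effectors with the largest fitted values were Ifi27l2b, at 16.6 ± 3.599 CPM (mean ± SD, n = 4) in R237H P56 males against 0.507 ± 0.1797 CPM in WT, and Rsad2 (viperin), at 24.2 ± 5.402 CPM against 1.53 ± 0.449 CPM. Their log2 fold changes in P56 males were 5.03 ± 0.28 and 4.00 ± 0.26, and in P21 males 3.16 ± 0.29 and 2.53 ± 0.24. Ifi27 had a smaller difference, at 0.92 ± 0.18 in P56 males and 0.28 ± 0.36 in P56 females, which was second only to B2m in mean TPM in R237H rats at P56. Ifi35, Ifi44, Ifi44l and Ifitm1 had log2 fold changes between 0.99 and 1.98 in P56 males.

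**Figure D3:**
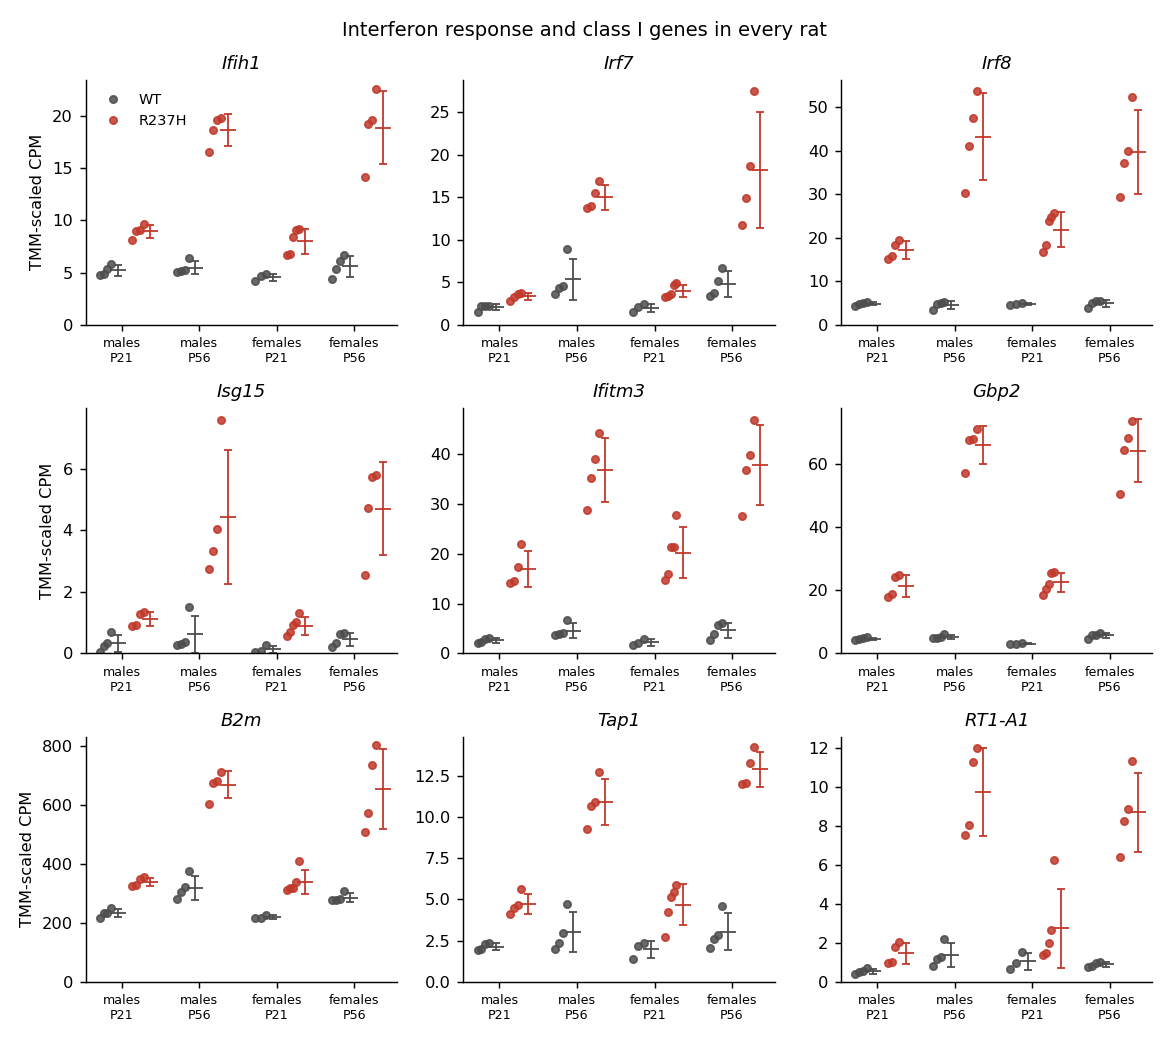
Level (y axis, TMM-scaled CPM) of 9 interferon response and class I genes in every rat, by sex and age, with WT in grey and R237H in red; points are rats sorted by value, and bars to their right give the mean ± SD (n = 3 to 5). The red points stand above the grey points of the same sex and age, except for RT1-A1 in P21 females, which overlapped. Gaps are wider at P56, and 1 WT P56 male stands above the rest of its group for Irf7, Isg15 and Ifitm3.

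OAS enzymes make oligoadenylates that activate RNase L. The 7 members were grouped by family name, and whether each makes oligoadenylates was not measured. All 7 were called higher in P56 females and 6 in P56 males. At P21 it was 5 of 5 tested in males and 2 of 7 in females. Oasl2, a member of the OAS-like branch of the family, was at 12.4, 14.97, 15.4 and 16.9 CPM in R237H P56 males and 3.75, 4.49, 4.69 and 4.88 CPM in WT, and at 13.01, 13.4, 15.8 and 19.4 CPM against 2.904, 3.54, 3.81 and 5.65 CPM in females. At P21 Oasl2 was at 7.96, 8.58, 8.96 and 9.13 CPM against 2.23, 2.397, 2.88 and 3.19 CPM in males and 5.12, 6.09, 7.33, 9.84 and 12.2 CPM against 2.01, 2.73 and 3.21 CPM in females. Its log2 fold changes, 1.63 to 1.94, were nearly the same in all 4 comparisons. The Oas1 genes are a cluster of close copies and their counts are uncertain for that reason. At P56 the log2 fold change was 1.67 ± 0.36 for Oas1a, 1.13 ± 0.19 for Oas1f and 1.15 ± 0.30 for Oas1i in males. Oas1k was seen almost only in R237H rats at P56, at 0.6401, 0.853, 1.21 and 4.201 CPM in males and 0.557, 1.45, 1.92 and 2.203 CPM in females, against at most 0.215 CPM in a WT rat at P56 and at most 0.2595 CPM in any P21 rat. The fitted value of Oas1k in P56 males, 3.88 ± 0.82, was 2.98 without s70-B, the rat at 4.201 CPM.

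Guanylate-binding proteins and their relatives attack vacuoles that hold pathogens, and their median log2 fold change was 3.57 in P56 males, 3.36 in P56 females and 2.38 in P21 females, the largest of any role. In P21 males it was 1.66, beside 1.70 for the OAS family. All 7 were called higher at P56 in both sexes, and 5 of 6 tested at P21 in both sexes. Gbp2 was at 57.3, 67.8, 67.9 and 71.2 CPM in R237H P56 males and 4.82, 4.998, 5.04 and 6.23 CPM in WT. P56 females were at 50.7, 64.5, 68.4 and 73.8 CPM against 4.62, 5.64, 5.78 and 6.52 CPM. Males at P21 were at 17.7, 18.7, 24.2 and 24.7 CPM against 4.18, 4.68, 4.69 and 5.01 CPM, and P21 females at 18.6, 20.6, 21.96, 25.6 and 25.8 CPM against 2.99, 3.07 and 3.18 CPM. R237H rats were thus at 17.7 to 25.8 CPM at P21 and 50.7 to 73.8 CPM at P56, and no WT rat was above 6.52 CPM. Ifi47, an immunity-related GTPase, was at 21.8 ± 3.76 CPM (mean ± SD, n = 4) in R237H P56 males and 1.799 ± 0.906 CPM in WT. Gbp4, Gbp5 and Gbp7 had log2 fold changes of 2.56 ± 0.21, 3.06 ± 0.16 and 2.61 ± 0.15 in P56 males and of 1.41 ± 0.22, 2.08 ± 0.15 and 1.23 ± 0.11 in P21 males.

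The 2 identifiers named Gbp6 may share reads. The more abundant one (ENSRNOG00000068418) was at 13.7, 16.6, 17.7 and 29.8 CPM in R237H P56 males against 1.202, 1.35, 1.98 and 2.14 CPM in WT. In P21 males it overlapped, at 0.966, 1.02, 1.35 and 1.45 CPM against 0.786, 0.805, 0.812 and 1.08 CPM. The other (ENSRNOG00000002134) was at 0.211 to 1.19 CPM over the 8 R237H rats at P56 and was listed at 0 in all 7 WT rats at P21, so no fold is given for it. The 9 R237H rats at P21 ranged from 0.02195 to 0.1903 CPM.

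The PARP names cover ADP-ribosyltransferases, some of which are interferon-induced, and Parpbp, a partner of PARP1. Of the 7, 5 were called higher and 1 lower in P56 males, 6 and 1 in P56 females, 5 and 1 in P21 males, and 5 and 0 in P21 females. Parp9 was at 34.9 ± 5.07 CPM in R237H P56 males and 9.45 ± 2.302 CPM in WT (mean ± SD, n = 4). Its log2 fold change was 1.91 ± 0.20 at P56 and 0.83 ± 0.09 at P21 in males. Parp14 had 2.39 ± 0.26 and 1.26 ± 0.10, Parp10 1.61 ± 0.23 and 1.41 ± 0.12, and Parp12 1.19 ± 0.12 and 0.90 ± 0.11, in the same order. Parp3, known for its part in DNA repair, was alike at both ages in males with 1.89 ± 0.26 and 1.85 ± 0.12. In females Parp3 was higher at P56, at 2.29 to 2.59 against 1.58 to 1.79 at P21. These are ranges over log2 TPM, other scaling factors and fits without each rat, and the female age by genotype difference was not called. For Parp6 the log2 values were -0.72 ± 0.08, -0.68 ± 0.08, -0.28 ± 0.04 and -0.22 ± 0.08 in P56 males, P56 females, P21 males and P21 females, and no R237H rat reached a WT rat of its sex and age.

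Among the TRIM ubiquitin ligases, Trim21, the cytosolic antibody receptor, had log2 fold changes of 1.43 ± 0.22 and 0.69 ± 0.10 in P56 and P21 males. Trim25, which acts on the RNA sensor RIG-I, had 1.47 ± 0.17 and 0.72 ± 0.15. Trim34 differed in age, with 1.29 ± 0.14 at P56 and 0.16 ± 0.11 at P21, where its groups overlapped in both sexes. Trim30c was at 0.259 to 0.557 CPM over 8 R237H rats at P56 and at 0 to 0.105 CPM over 8 WT rats, and it rests on few WT reads. No TRIM gene was called in P21 females.

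Class I molecules carry peptides that the immunoproteasome cuts and the TAP transporter moves into the endoplasmic reticulum. All 8 class I genes were called higher at P56 in both sexes, all 7 tested in P21 males, and 3 of 8 in P21 females. B2m was at 605, 676, 683 and 711 CPM in R237H P56 males and 279.6, 304, 321 and 375 CPM in WT, and at 507, 573, 734 and 802 CPM against 276, 277, 281 and 308 CPM in P56 females. P21 males were at 326, 328, 348 and 354 CPM against 215, 232, 234 and 252 CPM, and P21 females at 311, 317, 319.8, 339 and 409 CPM against 216, 217 and 227 CPM. Its log2 fold change was 1.09 ± 0.11 in P56 males and 0.54 ± 0.06 in P21 males, and no groups overlapped.

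RT1-A1, a classical class I heavy chain of the rat, was at 7.51, 8.05, 11.3 and 11.98 CPM in R237H P56 males and 0.802, 1.15, 1.26 and 2.21 CPM in WT, and at 6.402, 8.22, 8.84 and 11.3 CPM against 0.762, 0.784, 0.977 and 1.02 CPM in females. Levels in P21 males were 0.974, 1.03, 1.78 and 2.04 CPM against 0.387, 0.485, 0.572 and 0.691 CPM. P21 females overlapped, at 1.35, 1.45, 1.97, 2.64 and 6.25 CPM against 0.671, 0.951 and 1.52 CPM. The RT1 heavy chains are many, near-identical and variable between animals of an outbred stock, so their counts are uncertain. RT1-CE15, another heavy chain, was looked at after its values were seen. It was at 6.12 CPM in the R237H female R1790B and 5.04 CPM in the WT female R1797C at P21, and at most 0.4699 CPM in the other 14 rats of that age.

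Tap1, a subunit of the transporter, was at 9.29, 10.6, 10.9 and 12.7 CPM in R237H P56 males and 1.97, 2.33, 2.96 and 4.72 CPM in WT, and at 11.97, 12.1, 13.3 and 14.2 CPM against 2.03, 2.59, 2.86 and 4.62 CPM in females. P21 males were at 4.12, 4.5, 4.67 and 5.597 CPM against 1.9, 1.96, 2.29 and 2.36 CPM, and P21 females at 2.7, 4.24, 5.14, 5.46 and 5.86 CPM against 1.39, 2.14 and 2.36 CPM. Tap1 did not overlap in any comparison. Psmb8, an immunoproteasome subunit, was at 9.62, 12.3, 13.3 and 13.3 CPM against 1.604, 2.04, 2.71 and 3.701 CPM in P56 males and 9.07, 9.43, 10.1 and 13.4 CPM against 2.17, 2.37, 2.76 and 3.08 CPM in P56 females. At P21 Psmb8 was at 4.22, 4.26, 4.74 and 7.12 CPM against 1.35, 1.46, 1.55 and 1.62 CPM in males and 4.96, 7.06, 7.196, 7.43 and 8.001 CPM against 1.19, 1.42 and 1.75 CPM in females. Here too all groups were apart, by 2.29 ± 0.26 log2 units for P56 males and 1.78 ± 0.18 for P21 males. Psmb9, its companion subunit, had 1.60 ± 0.30 and 1.66 ± 0.17, and Tapbp (tapasin) 0.94 ± 0.21 and 0.57 ± 0.10.

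Nlrc5, the transactivator of class I genes, was at 7.48, 7.48, 7.89 and 8.15 CPM in R237H P56 males and 0.877, 1.25, 1.82 and 2.64 CPM in WT, and at 5.002, 7.75, 8.87 and 10.6 CPM against 1.27, 1.54, 1.57 and 1.77 CPM in females. The P21 males had levels of 2.17, 2.27, 2.502 and 2.51 CPM against 0.601, 0.8898, 0.928 and 1.19 CPM, and those of P21 females were 2.07, 2.09, 2.31, 3.04 and 3.74 CPM against 1.13, 1.39 and 1.79 CPM. The R237H rats were above the WT rats in each comparison, and s66-B was the highest WT male at P56 for RT1-A1, Tap1, Psmb8 and Nlrc5 alike.

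Class II molecules present peptides taken up from outside. Their alpha and beta chains assemble with the invariant chain Cd74, and RT1-DMa and RT1-DMb then exchange the bound fragment of Cd74 for peptide. These genes split by age. Cd74 was at 25.5, 37.04, 40.4 and 61.9 CPM in R237H P56 males and 4.23, 4.78, 4.99 and 13.6 CPM in WT, where s66-B was the highest, and at 32.98, 53.1, 61.7 and 62.2 CPM against 3.81, 4.57, 5.06 and 5.44 CPM in P56 females. P21 males were at 3.39, 3.64, 3.82 and 4.47 CPM against 1.103, 1.19, 1.57 and 1.86 CPM and P21 females, which overlapped, at 2.21, 3.86, 4.51, 5.12 and 5.21 CPM against 0.931, 2.896 and 2.996 CPM. The mean of Cd74 in R237H rats was thus 3.83 CPM at P21 and 41.2 CPM at P56 in males, and 4.18 and 52.5 CPM in females. Its fitted log2 difference in P56 males was 3.17 without s66-B, beside 2.59 ± 0.42 with it.

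RT1-Da, a class II alpha chain, had the same order of levels. P56 males were at 3.78, 8.13, 11.1 and 12.1 CPM against 0.734, 0.841, 0.978 and 3.37 CPM, so that the highest WT male, s66-B, lay just under the lowest R237H male, s69-B. P56 females were at 10.03, 12.01, 13.4 and 15.3 CPM against 0.977, 1.12, 2.08 and 2.17 CPM. At P21 it was at 0.974, 1.14, 1.25 and 1.56 CPM against 0.259, 0.3697, 0.406 and 0.424 CPM in males and 0.587, 0.985, 1.31, 1.41 and 1.85 CPM against 0.433, 0.7295 and 1.13 CPM in females. Without s66-B the fitted P56 male value rose from 2.57 ± 0.54 to 3.39. RT1-Bb, a beta chain, was low throughout and rests on few reads. It was at 0.2904, 1.27, 1.39 and 1.94 CPM against 0.0629, 0.192, 0.411 and 0.852 CPM in P56 males, which overlapped, and at 1.27, 2.67, 3.302 and 5.002 CPM against 0.122, 0.254, 0.392 and 0.471 CPM in P56 females, which did not. P21 rats of both genotypes lay between 0 and 0.692 CPM. The P56 male value of RT1-Bb was 1.71 ± 0.71, and 2.44 without s69-A. The alpha chain RT1-Ba had 2.23 ± 0.51 and 3.02 ± 0.34 at P56, and 1.19 ± 0.38 and 0.30 ± 0.72 at P21, in males and females.

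RT1-DMb, by contrast, was at 33.3, 34.6, 34.9 and 40.3 CPM in R237H P21 males and 38.8, 43.1, 48.9 and 49.9 CPM at P56, against 8.16, 8.96, 9.82 and 10.4 CPM and 8.87, 10.1, 10.4 and 12.2 CPM in WT males. Females were at 24.3, 31.7, 35.7, 39.5 and 50.4 CPM and 34.4, 37, 44.2 and 47.8 CPM in R237H rats and at 7.86, 9.25 and 10.4 CPM and 7.72, 9.24, 9.64 and 12.8 CPM in WT rats, at P21 and P56. The log2 fold change in males was 1.95 ± 0.09 at P21 and 2.15 ± 0.13 at P56. RT1-DMa was alike at P21, at 36.8 ± 3.65 CPM in R237H males and 16.2 ± 1.67 CPM in WT (mean ± SD, n = 4). At P56 it overlapped in both sexes, since the WT rats s70-A at 31.1 CPM and s69-D at 30.6 CPM stood above the other 6, which lay between 13.7 and 17.8 CPM. Ifi30, the thiol reductase GILT that opens disulfide bonds of antigens, was at 37.4, 39.4, 43.7 and 46.1 CPM against 5.97, 6.58, 8.63 and 9.26 CPM in P56 males and 34.3, 38.7, 39.99 and 43.8 CPM against 6.25, 6.5, 7.56 and 8.28 CPM in P56 females. Males at P21 were at 14.99, 15.9, 17.6 and 18.6 CPM against 6.63, 7.21, 7.23 and 7.79 CPM, and P21 females at 15.6, 15.96, 21.03, 21.9 and 23.4 CPM against 6.19, 7.28 and 7.65 CPM. Ifi30 lay between the patterns, with a genotype gap at P21 and a wider one at P56.

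**Figure D4:**
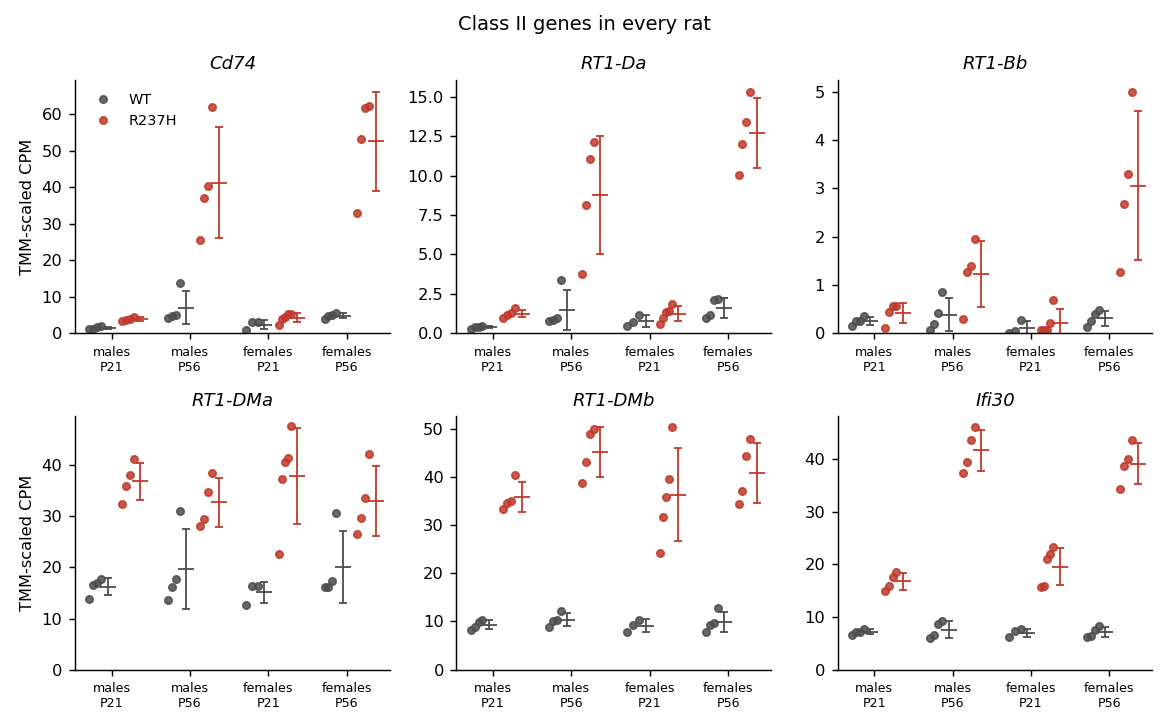
Level (y axis, TMM-scaled CPM) of 6 class II genes in every rat by sex and age, WT in grey and R237H in red, points being rats and bars the mean ± SD (n = 3 to 5). Cd74 and RT1-Da are low in R237H rats at P21 and high at P56. RT1-Bb is likewise higher at P56 in R237H females, but in P56 males it is low and overlaps WT. RT1-DMb in R237H males is already at 33.3 to 40.3 CPM at P21, beside 38.8 to 49.9 CPM at P56.

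The comparison of the sexes asked whether the genotype difference was of another size in females than in males. It subtracts the contrasts that chose the members, so its counts describe the list. At an FDR under 0.01 edgeR called 0 of 65 members at P56 and 0 of 63 at P21, where 0% of all genes were called at either age. Members at an unadjusted p under 0.05 numbered 0 at P56 and 5 at P21 by edgeR's quasi-likelihood test, 0 and 5 by its likelihood ratio test, and 1 and 5 by DESeq2, beside 310 of 15419 and 458 of 15361 of all genes by the first. The median absolute difference over members was 0.204 at P56 and 0.226 at P21 on the log2 scale, and the median SE was 0.354 and 0.273, the first being smaller than the second at both ages. The 5 at P21 were Gbp2 (0.67 ± 0.19, larger in females), the abundant Gbp6 identifier (2.68 ± 0.93), and, larger in males, Ifit1 (-0.79 ± 0.29), Oas1f (-0.67 ± 0.26) and RT1-Da (-1.06 ± 0.48). For Gbp6 the R237H females at P21 were at 0.945, 1.19, 6.01, 10.8 and 12.3 CPM against 0.498, 0.788 and 0.8401 CPM in WT, so that 3 of 5 stood well above every P21 male.

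The comparison of the ages asked whether the genotype difference was wider at P56 than at P21. It subtracts the contrasts that chose the members, and a gene listed at P56 alone is wider there by the choice itself, so nothing is read from its counts. In males edgeR called the R237H against WT difference higher at P56 in 17 members and lower in 1 (Parp6), beside 5.81% and 4.31% of all genes. In females it called 5 and 0, beside 1.49% and 0.658%. Of the 18 called in males, 16 were listed in both male tables and 2 (Trim34 and the abundant Gbp6 identifier) at P56 alone. Of the 5 in females, 2 were in both female tables and 3 (Cd74, Oas1k and Trim34) at P56 alone. The fitted difference was above 0 in 57 of 65 members in each sex, beside 48.1% of all genes in males and 45.4% in females. At an unadjusted p under 0.05 there were 34 members in males and 33 in females, beside 5529 of 15370 and 3523 of 15504 of all genes. Over members the median interaction was 0.77 log2 units for males and 0.65 for females.

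Members called in males came from most roles, where 5.81% of all genes were called higher, and the counts by role describe the list. Among GTPases 5 of 7 were called, with Gbp2 at 1.44 ± 0.17 and Gbp7 at 1.36 ± 0.18. Among antiviral effectors 5 of 16 were called, with Mx1 at 1.83 ± 0.31 and Ifit2 at 1.28 ± 0.24. Others were Irf8 at 1.39 ± 0.23, Ifih1 at 0.98 ± 0.15, Ifi30 at 1.23 ± 0.18 and Trim34 at 1.11 ± 0.17. Of the 7 OAS genes 0 were called, which is near that share. By the same quasi-likelihood test 2 of them had an unadjusted p under 0.05, and their fitted values ran from -0.20 to 3.23. Of the 18, 11 were called in every fit that left out 1 rat, namely Gbp2, Gbp7, the abundant Gbp6 identifier, Mx1, Irf8, Ifih1, Ifi30, Ifit2, Trim34, Parp9 and Parp6, the last at -0.46 ± 0.09. The count over members was lowest, at 11, without s70-B and without R1781I.

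The WT male s66-B bore on this comparison. Without it Cd74 moved from 1.14 ± 0.49 to 1.71, RT1-A1 reached 1.70, Irf7 1.13 and Tap1 1.02. These 4 were then called, and RT1-Da reached 1.60 without passing the threshold. In females the 5 were Cd74 at 2.57 ± 0.44, Mx1 at 1.75 ± 0.33, Trim34 at 1.01 ± 0.17, Ifi30 at 0.96 ± 0.20 and Oas1k, which rests on few reads, at 4.55 ± 0.93. Of these Mx1, Trim34 and Ifi30 were called in males too. None was called in every fit that left out 1 rat, since the count was 0 without R1790A and 0 without R1797C. It was 8 without R1790B, where RT1-A1 rose from 1.88 ± 0.59 to 2.49.

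The ages within 1 genotype were compared in the rats whose genotype differences chose the members, so the counts and FDRs describe the list. Within R237H rats, 53 members were higher and 1 lower at P56 than at P21 in males (13.1% and 9.58% of all genes), and 48 and 1 in females (9.29% and 6.51%). Calls held in every fit without 1 rat for 47 of 54 in males and 43 of 49 in females. In males Cd74 rose by 3.42 ± 0.35 (FDR 2.27e-06), RT1-Da by 2.81 ± 0.44 (FDR 0.000132), Oasl by 3.00 ± 0.41 (FDR 3.15e-05) and Irf7 by 2.15 ± 0.23 (FDR 3.19e-06) on the log2 scale. RT1-DMb was at 0.34 ± 0.11 (FDR 0.0228) and RT1-DMa at -0.17 ± 0.19 (FDR 0.523), and neither passed the threshold. In females these 4 genes were at 3.62 ± 0.30, 3.34 ± 0.32, 2.49 ± 0.40 and 2.17 ± 0.25, RT1-DMb was 0.15 ± 0.18 and RT1-DMa -0.22 ± 0.22.

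Within WT rats fewer members were called, in contrasts that share rats with the choice in the same way. In males 12 members were higher and 1 lower at P56 (4.02% and 4.41% of all genes), and in females 3 and 0 (1.03% and 1.56%). B2m, Cd74, Irf7, Oasl2 and Tapbp were called in every male fit without 1 rat, with Cd74 at 2.28 ± 0.36 and Irf7 at 1.38 ± 0.23. The count in males was 4 without the rats with Ttr above 100 CPM, 6 without each of the 4 P21 males in turn, and 24 without s69-A. RT1-Da fell from 2.02 ± 0.48 to 1.21 without s66-B and was then not called. Gbp7 was lower at P56, at -0.58 ± 0.13. The 3 in females were Gbp2 (0.87 ± 0.15), Ifit3 (2.05 ± 0.40) and Ifi44l (1.45 ± 0.31), none of which was called in every fit without 1 rat.

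**Figure D5:**
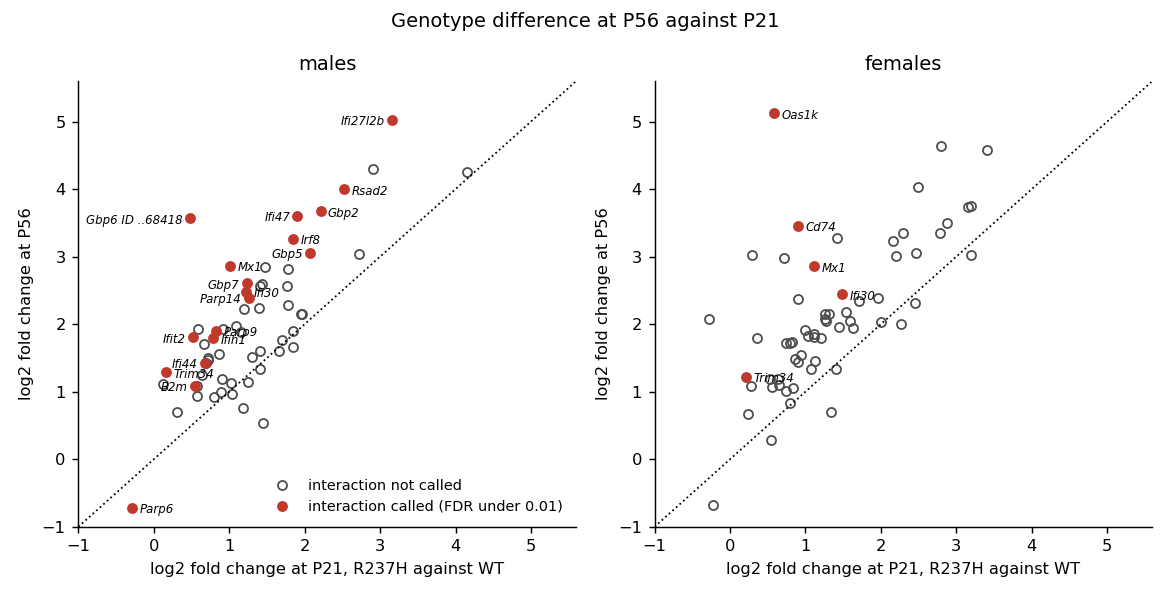
Log2 fold change of R237H against WT at P21 (x axis) and at P56 (y axis) for each member tested at both ages, males left and females right, with the line of equality; red points are members whose difference between the ages passed an FDR under 0.01. The fitted difference between the ages is above 0 for 57 of 65 members in each sex. That count includes members not drawn, since 60 were tested at P21 in males and 62 in females. Of the points, 18 are called in males and 5 in females. The tables that chose the members used both axes.

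The rest of the pathway was listed apart from the rule as 73 genes, of which 36 had a symbol. A symbol was itself given only to genes in the tables of genotype differences, so their counts describe the list in the same way. Of the 36, 36 were higher in P56 males, 35 in P56 females, 31 of 35 tested in P21 males and 26 in P21 females, and 0 were lower. In the same order 16.8%, 17.0%, 12.4% and 7.06% of all genes tested were higher. The gamma receptor chain Ifngr1 had log2 fold changes of 1.61 ± 0.12 in P56 males and 0.70 ± 0.06 in P21 males, and its partner Ifngr2 0.48 ± 0.11 and 0.15 ± 0.06. Cgas and Sting1, the DNA sensor and its adaptor, had 2.81 ± 0.56 and 2.14 ± 0.24 in P56 males. The chemokine Cxcl10 was at 16.9 ± 3.99 CPM in R237H P56 males and 0.338 ± 0.207 CPM in WT, and at 6.16 ± 1.75 CPM and 0.266 ± 0.0971 CPM at P21. Usp18, which limits the response, had 1.38 ± 0.27, and the costimulatory ligand Cd86 3.28 ± 0.23. Between the ages 31 of the 36 were higher at P56 in R237H males and 26 in R237H females, beside 13.1% and 9.29% of all genes. In WT males and females it was 5 and 1, beside 4.02% and 1.03%. These counts describe the list too, since the symbols came from genotype differences in the same rats.

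Cell type markers also lay at other levels in R237H rats, and their symbols too came from the tables of genotype differences. The summed level of 13 microglia markers (of 14 listed) was 1454 to 2240 CPM in R237H P56 males and 384 to 506 CPM in WT, and 955 to 1111 against 414 to 420.2 CPM in P21 males. P56 females were at 1534 to 2021 against 408 to 487 CPM, and P21 females at 938 to 1355 against 373 to 389.8 CPM. The 13 did not move alike, with log2 fold changes of 0.50 to 3.43 in P56 males and 0.19 to 3.71 in P56 females. In each of these 11 were called higher, beside 16.8% and 17.0% of all genes. Border macrophage and monocyte markers (4 of 6 listed) were at 42.0 to 133 CPM against 6.22 to 19.03 CPM in P56 males, and astrocyte markers (4 of 6) at 6555 to 8932 against 2589 to 3727 CPM. The astrocyte sum was carried by Gfap, whose log2 fold change in P56 males was 2.85, whereas Aqp4 was at 0.52, S100b at -0.57 and Slc1a2 at -0.58. Of 9 T cell markers only Cd6 and of 5 B cell markers only Cd22 had a symbol, and the summed level was 5.70 to 9.89 against 0.940 to 2.33 CPM for the former and 6.80 to 19.5 against 0.666 to 1.003 CPM for the latter. The dendritic cell markers with a symbol were Flt3 and Clec10a (2 of 5), at 15.1 to 43.8 against 11.4 to 13.6 CPM in P56 males, where Clec10a had a log2 fold change of 3.06 and Flt3 one of -0.21. Of the 4 neuron markers with a symbol 3 were called lower in R237H P56 males, namely Wfs1 (-1.39), Rbfox3 (-1.05) and Neurod6 (-0.89), beside 11.1% of all genes. In P56 females, P21 males and P21 females 0 were called lower, beside 11.1%, 4.82% and 0.753%. The log2 fold changes of the 4 in P56 females nevertheless lay between -0.71 and -0.51. The part of these cells in the member levels was not tested.

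In 1 rat the microglia markers and 3 of the class II genes stood at opposite ends of the group. The R237H P56 male s69-B had the highest microglia sum of its group, 2240 CPM, but its lowest Cd74, RT1-Da and RT1-Bb. Without s69-B the P56 male log2 fold change was 2.76 for Cd74 and 2.82 for RT1-Da. For RT1-DMb it was 2.10, lower than with s69-B, so not every class II gene went this way. Which cells made the class II transcripts was not tested. These values were looked at after the data were seen.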

How the data were processed

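Hippocampal polyadenylated RNA of 32 rats was sequenced, 3 to 5 rats in each of 8 groups of genotype, sex and age taken from the labels. Per the labels and methods, the authors used bcl2fastq (2.20.0.422), Skewer, STAR and RSEM, and deposited RSEM expected counts and TPM per gene; versions of the others, genome build and annotation are not given in the sources used here. Depth was 21580397 to 55544871 expected counts, which were rounded to whole numbers. Genes were kept by edgeR's filterByExpr and tested with TMM factors and its quasi-likelihood F-test (edgeR 4.0.16, R 4.3.3) within the rats of each comparison, with Benjamini-Hochberg adjustment (FDR) over all genes tested and a threshold of 0.01. The 12 comparisons were genotype within sex and age, sex by genotype, age by genotype, and age within genotype. The SE is that implied by the F statistic. Both genotypes came from shared litters, but which rats share one is not given in the sources used here, so the p-values treat the rats of a group as independent. The fit was tested on simulated data. DESeq2 (1.42.0), other filters, factors and designs, and fits without each rat were alternatives, and one without rats with Ttr above 100 CPM was chosen after the data were seen.

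The members, the other gene lists and the 25 genes given in every rat (chosen by role within the module) were fixed with earlier results of these data known. The authors' comparison tables were used for gene names only. Promoters were RefSeq sequences of GRCr8 (300 bases), matched by symbol for 51 of 64; those not matched were Dhx58, Ifi27l2b, Ifit1, Ifit2, Ifitm1, Isg15, Mx2, Nlrc5, Oas1k, Oas2, Parp10, RT1-DMb and Zbp1. RT1, Oas1, Ifitm and Gbp6 genes have close copies among which RSEM divides reads.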

Additional observations from a re-analysis of the deposited data

Results flagged for a closer look

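In groups of 4 or 5 rats, 175 groups over the 25 genes given in every rat were examined for a single rat far from the rest, and 14 were found, where chance gives about 1 in 20. The WT P56 male s66-B, with Ttr at 1671 CPM, was the highest in 8 of them. It was at 6.40 CPM for Ifih1 (the other 3 WT males 5.06 to 5.29), 0.392 for Zbp1 (0.0629 to 0.0961), 8.95 for Irf7 (3.66 to 4.53), 1.51 for Isg15 (0.264 to 0.376), 6.23 for Gbp2 (4.82 to 5.04), 6.74 for Ifitm3 (3.58 to 4.06), 13.6 for Cd74 (4.23 to 4.99) and 3.37 for RT1-Da (0.734 to 0.978). The part of choroid plexus tissue in these values was not tested.

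Other rats stood apart for 1 or 2 genes. Irf1 was lowest in the WT P56 female s66-D at 6.33 CPM, the others being at 9.57 to 9.73. Irf7 was lowest in the WT P21 male R1781F at 1.55 CPM, beside 2.22 to 2.24. B2m was highest in the WT P56 female s71-D at 308 CPM (276 to 281) and in the R237H P21 female R1789B at 409 CPM (311 to 339). The R237H P21 female R1790B was highest for RT1-A1 at 6.25 CPM (1.35 to 2.64) and for RT1-Bb at 0.692 CPM (0.0603 to 0.203).

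The genotype difference itself differed between P21 and P56, by edgeR's quasi-likelihood test of the interaction, in 18 members in males, but these contrasts chose the members, so the values are a description. On the log2 scale Gbp2 was at 1.44 ± 0.17 (SE), the abundant Gbp6 identifier ENSRNOG00000068418 at 3.07 ± 0.36, Gbp7 at 1.36, Gbp5 at 0.96 and Ifi47 at 1.69. Antiviral effectors were Mx1 at 1.83, Ifit2 at 1.28, Ifi27l2b at 1.84, Ifi44 at 0.73 and Rsad2 at 1.46. The rest were Ifi30 at 1.23, Trim34 at 1.11, Ifih1 at 0.98, Irf8 at 1.39, Parp9 at 1.06, B2m at 0.53, Parp14 at 1.12 and Parp6 at -0.46. In females it was 5 members, namely Cd74 at 2.57 ± 0.44, Trim34 at 1.01, Mx1 at 1.75, Oas1k at 4.55 and Ifi30 at 0.96.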

How the results depend on the processing

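No call between ages turned its direction under any alternative run. The direction of the genotype differences was followed in log2 TPM, with other scaling factors and without each rat, and no called difference turned there. Of the differences not called, P21 female RT1-Ba went from 0.30 to -0.23 without R1796A and 1.54 without R1797C, and RT1-CE15 from -0.28 to 3.18 without R1797C and 0.0128 without R1789B. Of 2512 recomputed genotype differences 2413 moved by less than 1 SD and 99 by more. Of the 99, 78 were in log2 TPM, where only 174 stayed within 1 SD, and 21 were in fits without 1 rat, where 1987 stayed. Of 3127 recomputed age and interaction calls 2839 passed the threshold again and 288 did not. The number of members called moved by over 1.5 times in 5 comparisons. For the genotype in P21 females (31 called) it was 14 with the replicate block and 20 without the rats with Ttr above 100 CPM. For age by genotype in males (18) it was 28 at an FDR under 0.05, and in females (5) it was 14 at that FDR, 12 by the likelihood-ratio test, 14 by DESeq2, 0 with the replicate block and 1 without the Ttr rats. For age in WT males (13) it was 28, 21 and 24 under the same 3 settings and 4 without the Ttr rats, and in WT females (3) 9, 7, 9 and 0. Leaving out each rat in turn gave 51 to 59 members called in P56 males, 58 to 63 in P56 females, 49 to 52 in P21 males and 19 to 34 in P21 females. It gave 11 to 27 for age by genotype in males, 0 to 8 in females, 6 to 24 for age in WT males, 0 to 3 in WT females, 47 to 57 in R237H males, 45 to 52 in R237H females and 0 for the sex comparisons. The 0 in WT females came without s64-B, R1790A, R1796A and R1797C, and the count in WT males was 7 without R1781H and 8 without R1781A. The replicate block used the number in the rat's name. Deviations of rats of 1 number correlated by -0.05 to 0.281 in P56 males (4 pairs), 0.012 to 0.458 in P21 females (3 pairs) and 0.077 and 0.529 in P56 females. The means of these pairs were 0.054, 0.185 and 0.303, against -0.014, -0.045 and -0.044 for pairs of different numbers. The female means were thus higher within a number, on few pairs. What the number stands for is not given, so the main fits left it out, and their p-values treat such rats as independent. With the block 58 members were called in P56 males, 49 in P56 females, 19 for age by genotype in males and 0 for the sexes, and it left 3, 1 and 3 residual degrees of freedom in P56 males, P56 females and P21 females. No block could be fitted in P21 males, whose rats share 1 number, or within 1 genotype between ages. Members at a few reads in WT rats, such as Zbp1, Oas1k, Trim30c, Oas2 and RT1-Bb, are limited by depth.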
